A study of Mus musculus with 12 samples.

Results

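The complement and coagulation genes described here are 34 mouse genes, 17 of the complement system and 17 of coagulation and fibrinolysis, chosen by gene name from the 54532 genes of a spinal cord RNA-seq count table. They comprise 7 classical pathway components, 3 genes of the central component and alternative pathway, 3 complement receptors, 4 complement regulators, 6 genes of coagulation factors or the thrombin receptor, 6 anticoagulants and 5 genes of plasminogen activation. Total RNA of whole spinal cord was sequenced in 12 libraries, 3 in each of 4 groups. Drd2mGFAP cKO mice and littermate control mice, labelled wt, were taken at day 17 of experimental autoimmune encephalomyelitis (EAE). EAE is an induced autoimmune inflammation of the central nervous system used as a model of multiple sclerosis. The other 2 groups were Drd2mGFAP cKO mice and littermate control mice without EAE (basal). The cKO mice carry a conditional knockout of Drd2, which encodes a dopamine receptor. All mice were C57BL/6 and 2 to 3 months old. The Cre line, the deleted part of Drd2, whether the controls carry a floxed allele or Cre, and how EAE was induced are not given in the sources used here. Comparisons were made of how these genes differ between EAE and basal cord in each genotype, and between cKO and control cord in each state.

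Complement is a cascade of plasma proteins that tags targets and recruits phagocytes. C1q binds a target and activates the proteases C1r and C1s, which cleave C4 and C2. The classical and alternative routes meet at C3, whose fragments, with those of C5, act on receptors of myeloid cells. In the brain and spinal cord microglia are a main source of C1q, and reactive astrocytes and infiltrating macrophages make C3. Coagulation starts when tissue factor meets factor VII, which leads through factor X and factor V to thrombin and fibrin. Thrombomodulin, protein C, protein S and tissue factor pathway inhibitor hold it back, and the plasminogen activators start the removal of fibrin. Fibrin and other blood proteins enter the cord in EAE through a leaking blood-brain barrier, and the liver makes most plasma complement and coagulation proteins.

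Library totals ran from 15128913 to 17592105 counts. Levels are given as CPM (counts scaled to library size) after TMM normalisation, which scales each library so that most genes match. A pair of libraries stood apart. The cKO EAE library 3 had 6.56 CPM of Cd74, the invariant chain of antigen-presenting cells, against 339.8 and 531 CPM in the other cKO EAE libraries and 888 to 2736 CPM in control EAE. The cKO basal library 2 had 17220 genes with a count, against 24303 to 26056 in the other 11. All 6 EAE libraries carried the Y-linked gene Ddx3y (69.7 to 74.5 CPM) and at most 0.287 CPM of Xist. All 6 basal libraries had 0 CPM of Ddx3y and 316 to 753 CPM of Xist, so EAE and sex cannot be told apart. Drd2 was at 6.73, 12.5 and 19.4 CPM in cKO EAE and 8.89, 8.998 and 9.62 CPM in control EAE. Without EAE Drd2 was at 17.6, 33.4 and 34.7 CPM in cKO and 26.5, 19.4 and 19.7 CPM in control mice. The log2 fold change of cKO over control was 0.52 at EAE and 0.40 without EAE, and neither was called. Cfi, Proc and Serpinb2, with at most 14 counts in any library, did not pass the filter on low counts with all libraries in the fit. The comparisons that include EAE tested 31 members (16 complement, 15 coagulation) and the basal comparison 24 (13 and 11). Calls are those of edgeR's quasi-likelihood test with a Benjamini-Hochberg adjusted p, computed over all genes tested, below 0.05, and differences are log2 fold changes with their standard errors (SE).

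In control mice, most of the complement genes and 9 coagulation genes rose at EAE. Of the 16 complement members tested, 13 were higher at EAE and none was lower, against 12.1% of all genes called higher and 5.05% called lower (17.1% in all). Their median log2 fold change was 4.005, against -0.01 over all 18601 genes tested. The 3 that did not pass were C2 and the membrane regulators Cd55 and Cd59a. Of the 15 coagulation members tested, 9 were higher (F7, F10, F13a1, Tfpi, Procr, Pros1, Plau, Plaur and Plat) and none was lower, with a median of 2.11. Tissue factor (F3), the thrombin receptor F2r, factor V (F5), thrombomodulin (Thbd), Tfpi2 and Serpine2 did not pass. All 3 control EAE libraries lay above all 3 control basal libraries for 14 complement and 13 coagulation members, against 29.8% of all genes. They lay below them for Cd55 and Cd59a, against 27% of all genes. Complement members summed to 5225, 4189 and 3759 CPM in control EAE and 271, 288 and 258 CPM in control basal. Coagulation members summed to 1003, 835 and 854 CPM in control EAE and 502, 396 and 389 CPM in control basal. Of these sums, Serpine2, which did not pass, held 358, 373 and 382 CPM in control EAE and 329, 258 and 249 CPM in control basal. Most of the complement total came from few genes: C1qa, C1qb, C1qc, C3 and C4b together made up 87.7% to 88.4% of it in control EAE and 77.2% to 80.6% in control basal. C1qa lost its call in edgeR's quasi-likelihood test when any 1 of the 6 control libraries was left out (adjusted p = 0.0518 to 0.0956). Plat lost it when any of them except control EAE 2 was left out (0.055 to 0.0952), and C5ar2 without control EAE 1, control basal 1 or control basal 3 (0.0538 to 0.0698). Procr lost it without control EAE 1, control basal 2 or control basal 3 (0.0522 to 0.0671) and Tfpi without control EAE 3, control basal 2 or control basal 3 (0.0513 to 0.0758). Without cKO basal 2, which enters the shared estimate of the spread, C2, F5, Thbd, Tfpi2 and Serpine2 were called higher and Cd55 lower (adjusted p = 0.00306, 0.0066, 0.00197, 0.0106, 0.0183 and 0.0434), where 42.9% of all genes were called. C2 was also called without cKO basal 3 (0.0424; 17.6% of all genes). Without cKO basal 2 and cKO EAE 3, 14 complement and 13 coagulation members were called higher and 1 (Cd55) lower, where 45.8% of all genes were called, 24.9% higher and 20.8% lower. DESeq2 called 14 complement and 11 coagulation members, and 18.5% of all genes, and limma voom with sample weights 15 and 14, and 59.8% of all genes. With no filter 13 and 9 were called, and 6.95% of all genes, and against at least a 2-fold change 10 and 7, and 6.2% of all genes.

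**Figure D1:**
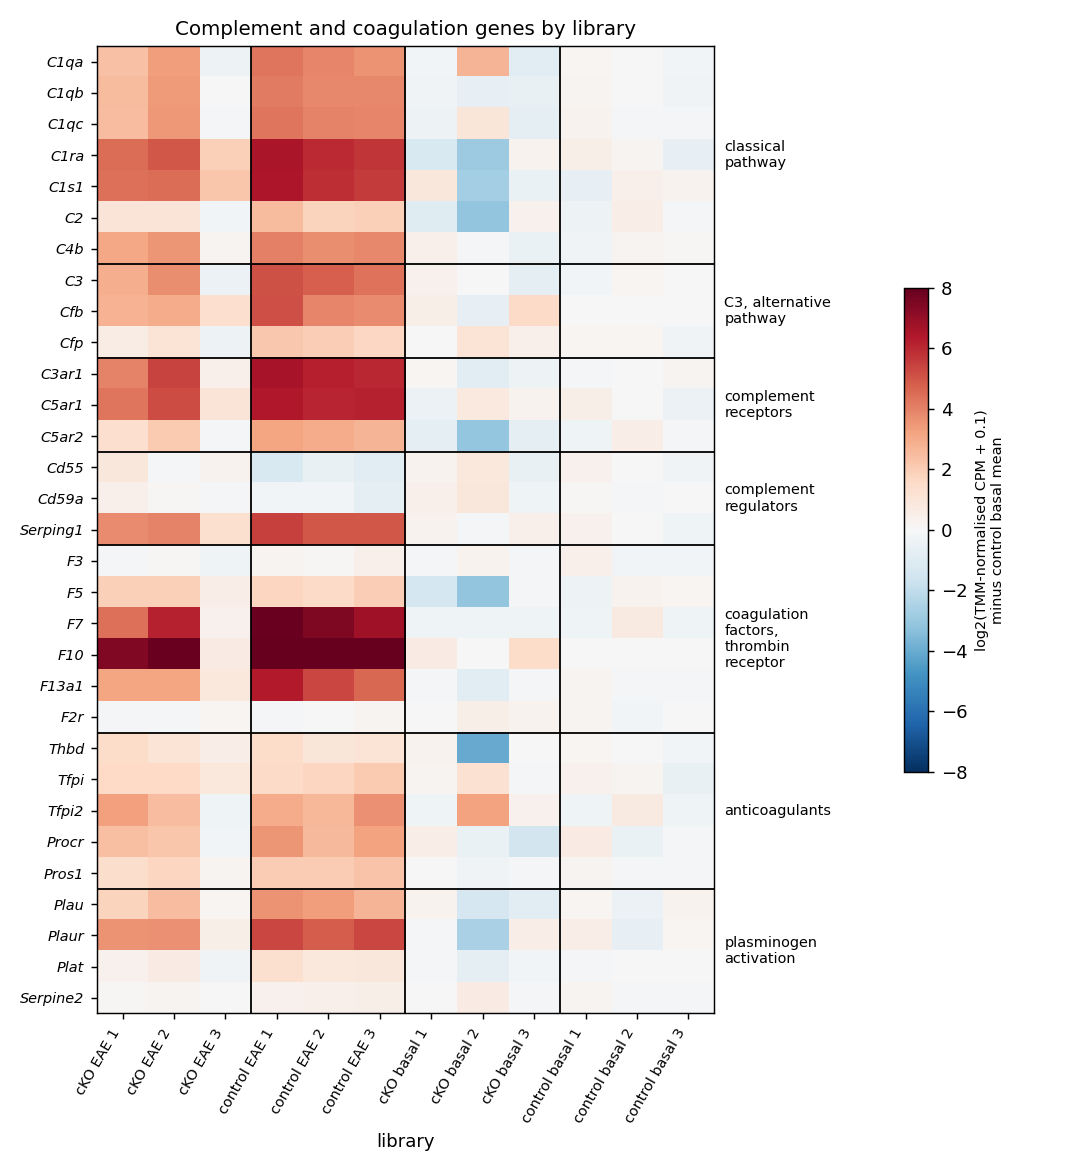
Level of each of the 31 members tested in each of the 12 libraries, as log2 of CPM plus 0.1 minus the mean of the control basal libraries (colour, cut at the ends of the scale, which F10 exceeds), with members in rows by role and libraries in columns. The control EAE columns are high for nearly all complement rows, cKO EAE 1 and 2 are between them and the basal columns, and cKO EAE 3 is close to the basal columns.

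In cKO mice no member was called at EAE against basal, in either list, with edgeR's quasi-likelihood test, where 0.0376% of all genes (7 of 18601) were called, 0.0323% higher and 0.00538% lower. At an unadjusted p below 0.05, 11 complement and 9 coagulation members passed, and 19.6% of all genes. DESeq2 called 10 and 8, and 5.95% of all genes, and limma voom with sample weights called 11 and 11, and 19.6% of all genes. The median log2 fold change was 2.84 over the complement members and 1.502 over the coagulation members, against 0.08 over all genes. All 3 cKO EAE libraries were above all 3 cKO basal libraries for 7 complement members (C1qb, C1ra, C1s1, C3ar1, C5ar1, C5ar2 and Serping1) and 5 coagulation members (F5, F7, F13a1, Thbd and Pros1), against 9.8% of all genes, and below them for none, against 5.78%. In TPM the cKO EAE libraries were also above the cKO basal libraries for C1qc, Tfpi and Serpine2. The share of all genes was not computed in TPM. The 3 cKO EAE libraries were spread widely: complement members summed to 1706, 2743 and 271 CPM in cKO EAE and to 301, 481 and 189 CPM in cKO basal. Coagulation members summed to 558, 621 and 422 CPM in cKO EAE and 413, 582 and 385 CPM in cKO basal. Of these sums, Serpine2 held 296, 316 and 279 CPM in cKO EAE and 270.0, 437 and 245 CPM in cKO basal. The cKO EAE library 3 was below the 5 other EAE libraries for 28 of the 31 members tested, against 33.1% of all genes, and above them for none, against 28.8%. It was above all 6 basal libraries for 8 (C1ra, C1s1, C3ar1, C5ar1, Serping1, F5, F13a1 and Thbd), against 12.7% of all genes, and below them for 2 (Cfp and F3), against 10.4%. For F3 this held in CPM only: in TPM it was at 63.0 in cKO EAE 3 and 42.6 in cKO basal 2. Without cKO EAE 3 alone, 10 complement and 8 coagulation members were called, and 5.63% of all genes. Without cKO EAE 3 and cKO basal 2, 11 complement and 12 coagulation members were called, all higher. In that fit 14.3% of all genes were called, 10.8% higher and 3.51% lower.

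Between genotypes at EAE, 14 complement and 15 coagulation members had negative log2 fold changes of cKO over control, and Cd55 and Cd59a positive ones. No member passed edgeR's quasi-likelihood test over the 6 EAE libraries, where 7.67% of all genes were called (6.13% higher and 1.54% lower in cKO). All 3 cKO EAE libraries lay below all 3 control EAE libraries for 14 of 16 complement and 9 of 15 coagulation members, against 26.7% of all genes. They lay above them for Cd55 and Cd59a, against 21.2% of all genes. The median log2 fold change of cKO over control was -1.56 over the complement members and -0.79 over the coagulation members, against a value that rounds to 0 over all genes. At an unadjusted p below 0.05 there were 10 complement and 7 coagulation members, and 35.9% of all genes. DESeq2 called 7 complement and 4 coagulation members, and 30.1% of all genes, and limma voom with sample weights 14 and 7, and 32.3% of all genes. Without cKO EAE 3, 12 complement members were called, 10 lower in cKO (C1qb, C1qc, C1ra, C1s1, C3, Cfp, C3ar1, C5ar1, C5ar2 and Serping1) and 2 higher (Cd55 and Cd59a). In the same fit 6 coagulation members were lower (F7, F10, F13a1, Pros1, Plau and Plaur), against 9.1% of all genes called lower and 9.11% called higher (18.2% in all). Without cKO EAE 2, 3 complement members and 1 coagulation member were called (C5ar2, Cd55, Cfp and F7; adjusted p = 0.037, 0.0279, 0.0309 and 0.0453), and 18.6% of all genes. No gene, and so no member, was called without cKO EAE 1 or without any 1 of the control EAE libraries. The same held with all 12 libraries in the fit.

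Markers of monocytes, macrophages and microglia moved with these lists. The summed level of 8 monocyte and macrophage markers, such as Lyz2 and Ccr2, was 112 to 1813 CPM in cKO EAE, 3475 to 6120 CPM in control EAE, 36.8 to 65.9 CPM in cKO basal and 42.4 to 70.5 CPM in control basal. That of 8 microglial markers, such as P2ry12 and Tmem119, was 233 to 1024 CPM in cKO EAE, 1157 to 1247 CPM in control EAE, 132 to 225 CPM in cKO basal and 209.9 to 225 CPM in control basal. In control mice 8 of 8 monocyte and macrophage markers, 7 of 8 microglial markers and 8 of 8 T cell markers were higher at EAE. None of these 24 markers was called in cKO against control at EAE, and all 24 had negative log2 fold changes. Of 8 neutrophil markers 7 were tested, and 1 was called higher at EAE in control mice. Neutrophil markers summed to 36.2 to 135 CPM in cKO EAE, 102 to 109 CPM in control EAE, 3.94 to 125 CPM in cKO basal and 2.10 to 20.98 CPM in control basal, and in cKO against control at EAE none was called and 4 of the 7 log2 fold changes were positive. The highest basal sum was that of cKO basal 2. Of 8 neuronal markers 5 were called higher in cKO (summed levels 3948 to 5283 CPM in cKO EAE and 2148 to 2771 CPM in control EAE). Of 8 astrocyte markers 3 were called higher in cKO against control at EAE, where 6.13% of all genes were, and 4 log2 fold changes were positive and 4 negative. These neuronal and astrocyte calls were lost without cKO EAE 1 or without any 1 of the control EAE libraries, where no gene was called. Astrocyte markers summed to 4723 to 8925 CPM in cKO EAE, 8036 to 9439 CPM in control EAE, 2904 to 5068 CPM in cKO basal and 4445 to 5090 CPM in control basal. Platelet markers summed to 8.27 to 12.3 CPM in cKO EAE and 11.7 to 13.7 CPM in control EAE. Summed levels of 6 liver markers, among them albumin, were 2.74 to 3.33 CPM in cKO EAE and 3.08 to 5.37 CPM in control EAE. Without EAE the liver markers summed to 0.523 to 77.8 CPM in cKO, highest in cKO basal 3, and 0.497 to 6.68 CPM in control mice. No marker of these lists was at 0 in every library. The part of these cells in the levels of complement and coagulation genes was not tested, and in whole cord fewer cells of a type and less RNA per cell cannot be told apart.

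Promoters of 6 members are shown, 5 of them from members of several roles that were higher together at EAE in control mice and 1 that was not: C1qc and C1ra of the classical pathway, C3, the urokinase receptor Plaur, factor X (F10), and, as the exception, Cd55. Each is the RefSeq window (build GRCm38.p6) of 250 bases before to 50 after the annotated start, 5′ to 3′ on the gene's strand. Windows were found for 24 of the 34 members. The windows are chr4:136892865-136893164, minus strand, for C1qc, chr6:124512371-124512670, plus strand, for C1ra, and chr17:57228087-57228386, minus strand, for C3. The others are chr7:24462233-24462532, plus strand for Plaur, chr8:13037058-13037357, plus strand for F10 and chr1:130462695-130462994, minus strand for Cd55. Capitals mark matches, on either strand, to the binding motifs of factors known from inflammation: the PU.1 core GAGGAAG, the C/EBP motif TTGCNNAA, the AP-1 motif TGANTCA, the STAT motif GAS TTCNNNGAA, the ISRE core (GAAA, any 2 bases, GAAA) and the NF-kappa B motif (GGGA, any base, TT, any base, CC).
C1qc: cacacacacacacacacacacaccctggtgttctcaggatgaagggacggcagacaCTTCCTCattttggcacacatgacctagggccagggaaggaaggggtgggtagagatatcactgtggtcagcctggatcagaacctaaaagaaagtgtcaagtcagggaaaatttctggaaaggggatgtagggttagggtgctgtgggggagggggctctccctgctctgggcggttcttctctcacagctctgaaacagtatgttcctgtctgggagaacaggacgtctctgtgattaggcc
C1ra: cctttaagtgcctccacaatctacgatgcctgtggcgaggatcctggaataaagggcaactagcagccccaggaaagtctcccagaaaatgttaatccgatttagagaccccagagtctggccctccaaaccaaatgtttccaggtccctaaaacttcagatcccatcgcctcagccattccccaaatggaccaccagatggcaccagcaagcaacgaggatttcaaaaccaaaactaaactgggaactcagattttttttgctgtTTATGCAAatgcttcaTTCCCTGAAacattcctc
C3: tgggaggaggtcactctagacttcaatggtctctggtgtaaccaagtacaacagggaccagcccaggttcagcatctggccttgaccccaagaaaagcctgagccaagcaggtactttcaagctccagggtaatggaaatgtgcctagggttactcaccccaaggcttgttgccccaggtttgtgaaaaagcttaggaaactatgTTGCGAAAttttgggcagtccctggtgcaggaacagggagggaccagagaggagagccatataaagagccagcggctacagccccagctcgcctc
Plaur: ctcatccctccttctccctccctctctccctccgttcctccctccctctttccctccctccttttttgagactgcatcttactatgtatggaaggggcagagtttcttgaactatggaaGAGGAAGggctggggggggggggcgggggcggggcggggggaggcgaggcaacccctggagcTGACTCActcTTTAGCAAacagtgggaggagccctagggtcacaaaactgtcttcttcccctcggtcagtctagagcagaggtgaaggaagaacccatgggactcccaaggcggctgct
F10: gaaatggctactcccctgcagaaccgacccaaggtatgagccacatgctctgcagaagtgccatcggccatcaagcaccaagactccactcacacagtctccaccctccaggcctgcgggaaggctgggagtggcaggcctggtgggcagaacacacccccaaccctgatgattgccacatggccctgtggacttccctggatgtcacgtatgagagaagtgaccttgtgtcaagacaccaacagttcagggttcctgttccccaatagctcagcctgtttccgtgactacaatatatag
Cd55: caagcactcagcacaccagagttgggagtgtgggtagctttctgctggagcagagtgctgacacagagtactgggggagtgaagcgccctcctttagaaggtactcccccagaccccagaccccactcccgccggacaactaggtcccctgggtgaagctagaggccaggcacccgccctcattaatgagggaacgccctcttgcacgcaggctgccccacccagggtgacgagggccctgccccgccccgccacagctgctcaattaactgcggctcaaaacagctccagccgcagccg
C1qc had the PU.1 core 194 bases before its start, C1ra the C/EBP motif 16 and the GAS motif 32 bases after its start, C3 the C/EBP motif 45 bases before its start, and Plaur the PU.1 core 131, the AP-1 motif 69 and the C/EBP motif 59 bases before its start. No matches shared a base, and F10 and Cd55 held none of the 6 motifs in these letters. Among the 24 members, 5 held the PU.1 core, 7 the C/EBP motif, 7 the AP-1 motif, 3 the GAS motif, 1 the ISRE core and 1 the NF-kappa B motif in at least 1 window. By window, 7, 8, 8, 4, 1 and 1 of the 31 windows of these members held them, in the same order of motifs. Of all 32851 windows, 13.6%, 10.8%, 7.81%, 8.30%, 3.44% and 1.20% held them, in that order. Several members have more than 1 window. A match is a description of the letters, and binding was not measured.

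The classical pathway starts with C1q, whose chains are encoded by C1qa, C1qb and C1qc within one stretch of chromosome 4 (build mm10; C1qb and C1qc are 3616 bases apart, C1qc and C1qa 2851). C1qb was at 197, 357 and 32.8 CPM in the cKO EAE libraries 1, 2 and 3 and 614, 487 and 480.2 CPM in the control EAE libraries. Without EAE C1qb was at 27.4, 21.8 and 22.4 CPM in cKO and 39.7, 34.3 and 28.2 CPM in control mice. The 3 control EAE libraries were the highest, cKO EAE 1 and 2 were between them and the basal libraries, and cKO EAE 3 was above the cKO basal libraries and within the range of the control basal libraries. C1qb was 3.95 ± 0.65 (log2, SE) higher at EAE in control mice (adjusted p = 0.0034, edgeR's quasi-likelihood test) and the log2 fold change was 3.03 ± 0.63 in cKO mice (adjusted p = 0.0736). C1qa was at 146, 299.5 and 22.2 CPM in the cKO EAE libraries 1, 2 and 3 and 578, 435 and 358 CPM in the control EAE libraries. Without EAE C1qa was at 24.8, 196 and 16.1 CPM in cKO and 32.4, 30.2 and 25.6 CPM in control mice. The highest basal value of C1qa was that of cKO basal 2, above 2 of the 3 cKO EAE libraries, and all 3 control EAE libraries were above every other library. In TPM, cKO basal 2 was at 308, still the highest basal value but below cKO EAE 1 at 485. C1qc was at 142, 287 and 23.9 CPM in the cKO EAE libraries 1, 2 and 3 and 496, 406 and 392 CPM in the control EAE libraries. Without EAE C1qc was at 19.7, 50.9 and 15.1 CPM in cKO and 31.9, 23.5 and 22.7 CPM in control mice. In CPM the highest basal value of C1qc was also that of cKO basal 2, above cKO EAE 3. In TPM it was 43.1, below cKO EAE 3 at 46.6 and below the control basal libraries at 43.6 to 52.1. In cKO against control at EAE, the log2 fold changes of C1qa, C1qb and C1qc were -1.52 ± 0.78, -1.40 ± 0.72 and -1.48 ± 0.74, and the groups did not overlap (adjusted p = 0.204, 0.203 and 0.193, edgeR's quasi-likelihood test); without cKO EAE 3 they were -1.004 ± 0.30, -0.90 ± 0.23 and -0.98 ± 0.26 (adjusted p = 0.0522, 0.035 and 0.0377), and C1qa did not pass.

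C1r and C1s, the proteases that C1q activates, were encoded by C1ra and C1s1, 6901 bases apart on chromosome 6. C1ra was at 17.1, 23.6 and 2.74 CPM in cKO EAE and 69.8, 47.7 and 40.8 CPM in control EAE. Without EAE C1ra was at 0.233, 0 and 0.835 CPM in cKO and 0.954, 0.773 and 0.387 CPM in control mice. All 6 EAE libraries were above all 6 basal libraries, including cKO EAE 3. C1s1 was at 13.8, 14.7 and 2.98 CPM in cKO EAE and 58.8, 40.4 and 31.6 CPM in control EAE. Without EAE C1s1 was at 1.16, 0 and 0.358 CPM in cKO and 0.318, 0.773 and 0.718 CPM in control mice, and its EAE and basal libraries did not overlap in either genotype. The log2 fold changes at EAE in control mice were 6.22 ± 0.94 for C1ra and 6.15 ± 0.91 for C1s1, and both were called (adjusted p = 0.00318 and 0.00318, edgeR's quasi-likelihood test). In cKO against control at EAE they were -1.83 ± 0.67 for C1ra and -2.01 ± 0.56 for C1s1 (adjusted p = 0.107 and 0.0658). C4b, which encodes the C4 protein that C1s cleaves, was at 657, 906 and 91.5 CPM in cKO EAE and 1254, 1027 and 1114 CPM in control EAE. Without EAE C4b was at 103, 71.6 and 53.1 CPM in cKO and 63.1, 90.1 and 81.8 CPM in control mice. Its cKO EAE and control EAE libraries did not overlap, and its log2 fold change was -1.002 ± 0.70 (adjusted p = 0.334, edgeR's quasi-likelihood test), and -0.50 ± 0.16 without cKO EAE 3 (adjusted p = 0.0714). At EAE in control mice it was 3.85 ± 0.66 (adjusted p = 0.00389). C2, the partner of C4 in the classical C3 convertase, was scarce: it had 30, 28 and 11 counts in cKO EAE and 87, 50 and 54 in control EAE. Without EAE C2 had 6, 0 and 17 counts in cKO and 9, 21 and 13 in control mice. The 3 control EAE counts of C2 were the highest; C2 overlaps Zbtb12 on the other strand, and with the strand setting of the counting not given their reads cannot be told apart.

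**Figure D2:**
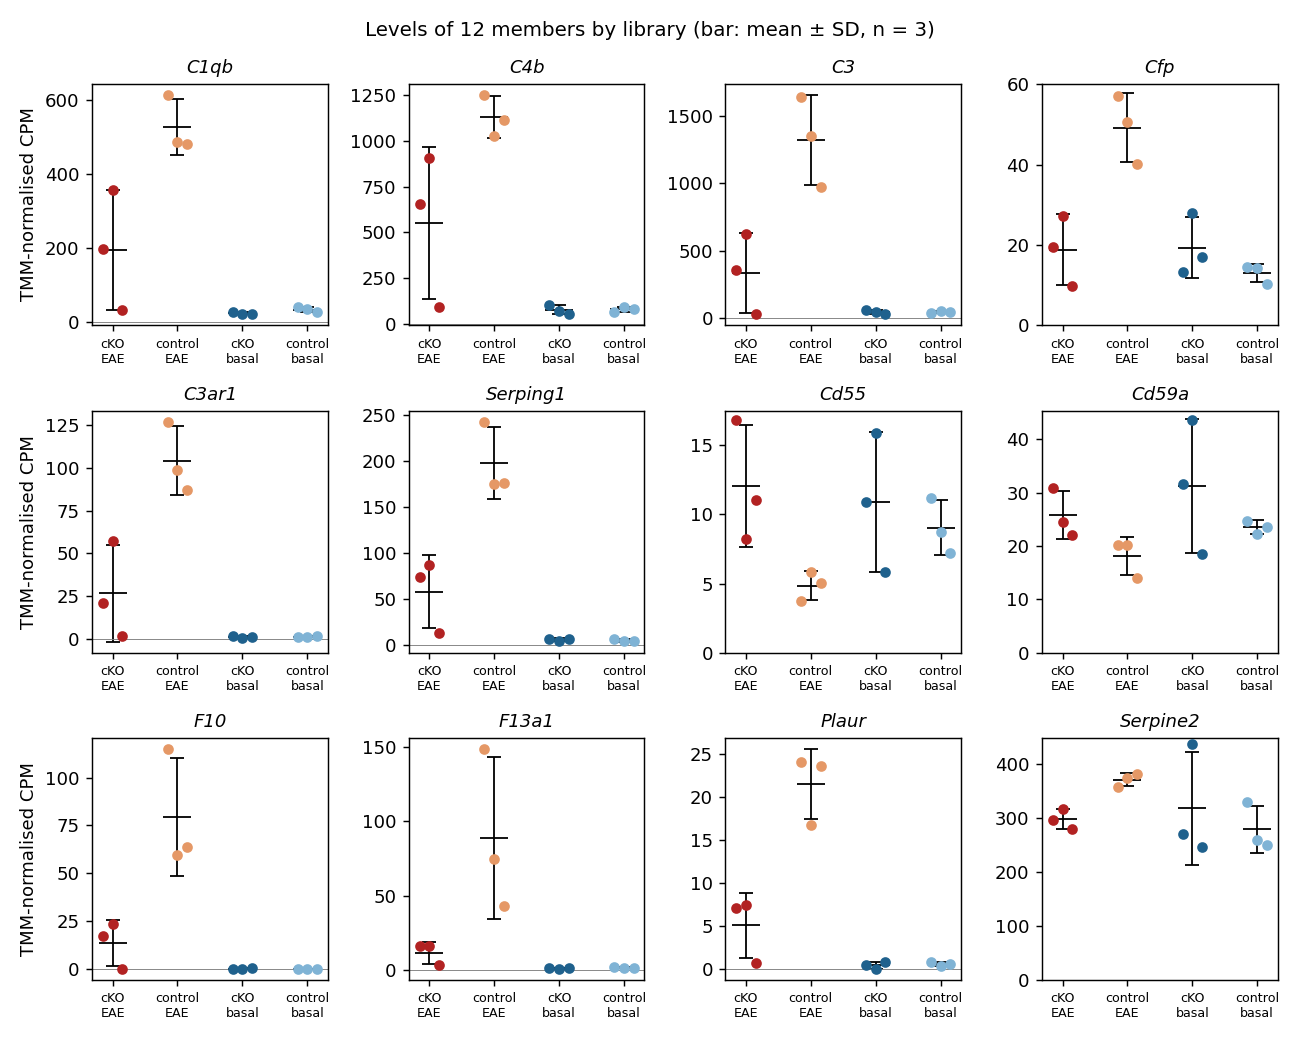
CPM of 12 members (linear axes), with 1 point per library, bars at the mean ± SD (n = 3) and the 4 groups from left to right as cKO EAE, control EAE, cKO basal and control basal. C3 was at 34.2 to 624 CPM in the cKO EAE libraries and 971 to 1639 CPM in the control EAE libraries.

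C3 is the central component, cleaved by every route into the opsonin C3b and the anaphylatoxin C3a. C3 was at 356, 624 and 34.2 CPM in the cKO EAE libraries 1, 2 and 3 and 1639, 1348 and 971 CPM in the control EAE libraries. Without EAE C3 was at 60.02, 47.1 and 29.8 CPM in cKO and 42.2, 53.9 and 49.6 CPM in control mice. All 3 control EAE libraries were above every other library, cKO EAE 1 and 2 were above every basal library, and cKO EAE 3 was within the range of the basal libraries. C3 was 4.76 ± 0.82 higher at EAE in control mice (log2, adjusted p = 0.00389, edgeR's quasi-likelihood test), and the log2 fold change of cKO over control at EAE was -1.93 ± 0.87 (adjusted p = 0.16). Without cKO EAE 3 it was -1.40 ± 0.28 (adjusted p = 0.0189). Factor B (Cfb), which with C3b forms the alternative convertase, had 17, 19 and 5 counts in cKO EAE and 94, 38 and 36 in control EAE. Without EAE Cfb had 2, 0 and 6 counts in cKO and 1, 1 and 1 in control mice. Its level was highest in control EAE 1, and over the group the ratio of control EAE to control basal was 56.6 (95% exact Poisson interval 19.4 to 274, from 168 and 3 counts, covering counting error only). Properdin (Cfp), which stabilises that convertase and is encoded on the X chromosome, was at 19.4, 27.3 and 9.73 CPM in cKO EAE and 57.00, 50.7 and 40.1 CPM in control EAE. Without EAE Cfp was at 13.2, 27.9 and 16.9 CPM in cKO and 14.5, 14.2 and 10.4 CPM in control mice. The control EAE libraries were the highest, but cKO EAE 3 was below all 6 basal libraries. Its log2 fold change at EAE was 1.92 ± 0.39 in control mice (called, adjusted p = 0.00738, edgeR's quasi-likelihood test) and -0.04 ± 0.38 in cKO mice, and its difference between them, -1.96 ± 0.54, had the smallest p of any member (unadjusted p = 0.00395, adjusted p = 0.547). The cKO and control EAE groups did not overlap and the fold change was -1.35 ± 0.35 (adjusted p = 0.0589).

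The receptors for the cleavage fragments C3a and C5a are carried by myeloid cells. C3ar1, the C3a receptor, was at 20.8, 57.3 and 1.702 CPM in cKO EAE and 127, 98.6 and 87.2 CPM in control EAE. Without EAE C3ar1 was at 1.396, 0.637 and 0.894 CPM in cKO and 1.08, 1.22 and 1.44 CPM in control mice. Every EAE library was above every basal library, and cKO EAE 3 was at the low end of the EAE range, close to control basal. C5ar1, the C5a receptor, was at 10.4, 19.3 and 0.973 CPM in cKO EAE and 45.6, 36.6 and 37.6 CPM in control EAE. Without EAE C5ar1 was at 0.291, 0.819 and 0.537 CPM in cKO and 0.636, 0.442 and 0.276 CPM in control mice, and showed the same pattern. C5ar2, another C5a receptor, was at 0.669 to 3.59 CPM in cKO EAE, 5.42 to 7.56 CPM in control EAE, 0 to 0.417 CPM in cKO basal and 0.572 to 1.105 CPM in control basal. In control mice, the log2 fold changes at EAE were 6.38 ± 1.004, 6.46 ± 0.93 and 3.05 ± 0.71 (adjusted p = 0.00319, 0.00318 and 0.0141, edgeR's quasi-likelihood test). In cKO against control at EAE they were -1.94 ± 0.95, -1.93 ± 0.80 and -1.59 ± 0.51 (adjusted p = 0.186, 0.135 and 0.0843).

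Regulators keep complement from attacking the host's own cells. Serping1, the C1 inhibitor that blocks C1r and C1s, was at 74.6, 86.98 and 13.3 CPM in cKO EAE and 243, 175 and 176 CPM in control EAE. Without EAE Serping1 was at 6.63, 4.91 and 7.39 CPM in cKO and 7.06, 5.25 and 4.36 CPM in control mice. It was called higher at EAE in control mice (5.15 ± 0.61, adjusted p = 0.00318, edgeR's quasi-likelihood test), and every cKO EAE library was above every basal library and below every control EAE library (-1.73 ± 0.61, adjusted p = 0.102 for cKO against control at EAE). Cd55, a membrane protein that speeds the decay of C3 convertases, was at 16.8, 8.21 and 11.1 CPM in cKO EAE and 3.75, 5.801 and 5.01 CPM in control EAE. Without EAE Cd55 was at 10.9, 15.9 and 5.84 CPM in cKO and 11.2, 8.73 and 7.24 CPM in control mice. The 3 control EAE libraries were the lowest of the 12, and the cKO EAE libraries were within or above the basal range. Its log2 fold change was -0.90 ± 0.39 at EAE in control mice (adjusted p = 0.161, edgeR's quasi-likelihood test) and 0.15 ± 0.39 in cKO mice, and 1.35 ± 0.32 in cKO against control at EAE (adjusted p = 0.0505); without cKO EAE 3 it was 1.41 ± 0.32 (adjusted p = 0.0246), and the difference between the EAE responses was 1.04 ± 0.55 (adjusted p = 0.582). Cd55 overlaps the antisense gene Gm16083, which had 102 counts over the 3 cKO EAE libraries and 56 over the 3 control EAE libraries, against 612 and 249 for Cd55, and which strand was counted is not given in the sources used here. Cd59a, a membrane protein that blocks the membrane attack complex, was at 30.9, 24.6 and 22.1 CPM in cKO EAE and 20.2, 20.1 and 13.99 CPM in control EAE. Without EAE Cd59a was at 31.6, 43.7 and 18.4 CPM in cKO and 24.7, 22.2 and 23.6 CPM in control mice. Its cKO EAE libraries were above its control EAE libraries (0.55 ± 0.20, adjusted p = 0.104, and 0.66 ± 0.19, adjusted p = 0.0469 without cKO EAE 3). Factor I (Cfi), which cleaves C3b and C4b, had 1 to 14 counts in each EAE library and 0 to 7 in each basal library, and did not pass the filter on low counts with all libraries in the fit.

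Some coagulation factors had almost no counts outside EAE, and others were present in all libraries. Factor VII (F7), which tissue factor activates, had 45, 149 and 1 counts in cKO EAE and 523, 382 and 244 in control EAE. Without EAE F7 had 0, 0 and 0 counts in cKO and 0, 2 and 0 in control mice. Factor X (F10), which factor VIIa cleaves, had 297, 391 and 1 counts in cKO EAE and 1993, 1009 and 1094 in control EAE. Without EAE F10 had 1, 0 and 3 counts in cKO and 0, 0 and 0 in control mice. F7 and F10 are 1498 bases apart on chromosome 8, and both had at most 3 counts in any basal library and 1 count each in cKO EAE 3. Over the control group F10 was at least 1380-fold higher at EAE, against a floor of 3 counts for the 0 counts in control basal, and the ratio for F7 was 581 (95% exact Poisson interval 161 to 4795, from 1149 and 2 counts, covering counting error only). The log2 fold change of cKO over control at EAE was -2.50 ± 0.99 for F7 and -2.52 ± 1.12 for F10 (adjusted p = 0.126 and 0.155, edgeR's quasi-likelihood test), and without cKO EAE 3 it was -1.93 ± 0.48 and -1.94 ± 0.30 (adjusted p = 0.0299 and 0.015). The A subunit of factor XIII, the enzyme that cross-links fibrin (F13a1), was at 15.98, 15.9 and 3.22 CPM in cKO EAE and 148, 74.5 and 42.9 CPM in control EAE. Without EAE F13a1 was at 1.57, 0.9097 and 1.55 CPM in cKO and 1.97, 1.602 and 1.602 CPM in control mice. The control EAE libraries were the highest and differed among themselves, and the cKO EAE libraries were all below them. F13a1 was 5.68 ± 0.68 higher at EAE in control mice (log2, adjusted p = 0.00318, edgeR's quasi-likelihood test); its cKO against control fold change at EAE was -2.88 ± 0.69 (adjusted p = 0.0529), and its difference between the responses was -2.58 ± 0.84 (adjusted p = 0.547). Tissue factor (F3), the starter of coagulation that astrocytes are known to make, was at 52.3, 58.5 and 42.4 CPM in cKO EAE and 63.6, 58.3 and 74.2 CPM in control EAE. Without EAE F3 was at 49.7, 65.9 and 50.4 CPM in cKO and 72.7, 47.4 and 47.96 CPM in control mice, and its cKO EAE and control EAE libraries overlapped. Factor V (F5), the cofactor of factor Xa, was at 1.22 to 3.33 CPM in cKO EAE, 2.49 to 3.38 CPM in control EAE, 0 to 0.716 CPM in cKO basal and 0.572 to 0.994 CPM in control basal. The thrombin receptor F2r was at 16.6 to 20.5 CPM in cKO EAE, 17.4 to 21.05 CPM in control EAE, 18.3 to 25.8 CPM in cKO basal and 15.6 to 21.5 CPM in control basal, and edgeR's quasi-likelihood test called it in no comparison.

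Among the anticoagulants, protein S (Pros1), the cofactor of activated protein C, was at 58.5, 74.04 and 25.7 CPM in cKO EAE and 91.4, 93.1 and 107 CPM in control EAE. Without EAE Pros1 was at 21.99, 18.7 and 19.7 CPM in cKO and 26.3, 19.9 and 21.3 CPM in control mice. Its EAE libraries were above its basal libraries in both genotypes, and the control EAE libraries were the highest. Pros1 was called higher at EAE in control mice (2.11 ± 0.32, adjusted p = 0.00319, edgeR's quasi-likelihood test), and the log2 fold change of cKO over control at EAE was -0.85 ± 0.35, adjusted p = 0.136. The protein C receptor (Procr) was at 4.94, 4.25 and 0.729 CPM in cKO EAE and 10.9, 5.74 and 8.92 CPM in control EAE. Without EAE Procr was at 1.28, 0.546 and 0.239 CPM in cKO and 1.399, 0.552 and 0.774 CPM in control mice, and its cKO EAE libraries were below its control EAE libraries. Tissue factor pathway inhibitor (Tfpi) was at 9.43, 9.58 and 5.53 CPM in cKO EAE and 9.17, 10.4 and 13.8 CPM in control EAE. Without EAE Tfpi was at 3.55, 7.37 and 2.92 CPM in cKO and 4.01, 3.65 and 1.99 CPM in control mice. Both were higher at EAE in control mice (3.23 ± 0.75, adjusted p = 0.0135 for Procr and 1.79 ± 0.42, adjusted p = 0.0146 for Tfpi, edgeR's quasi-likelihood test), and the cKO and control EAE libraries overlapped for Tfpi. Thrombomodulin (Thbd), the endothelial receptor that turns thrombin towards protein C, was at 16.5, 12.8 and 8.75 CPM in cKO EAE and 16.6, 11.7 and 12.9 CPM in control EAE. Without EAE Thbd was at 7.15, 0.273 and 5.84 CPM in cKO and 6.68, 6.02 and 5.19 CPM in control mice. The cKO EAE and control EAE libraries of Thbd overlapped, and cKO basal 2 was far below the other basal libraries. Tfpi2, a relative of Tfpi, had 0 to 26 counts in any library, and the ratio of control EAE to control basal was 27.3 (95% exact Poisson interval 7.56 to 225, from 54 and 2 counts). Protein C itself (Proc) had 7 counts in cKO basal 2 and at most 1 in any other library.

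Plasminogen activation, the start of fibrin removal, is set off by the enzymes Plau and Plat. Plau, urokinase, was at 5.52, 8.99 and 1.702 CPM in cKO EAE and 19.6, 16.7 and 10.7 CPM in control EAE. Without EAE Plau was at 1.86, 0.546 and 0.775 CPM in cKO and 1.72, 1.105 and 1.93 CPM in control mice. Plaur, its receptor, whose promoter is shown above, was at 7.07, 7.43 and 0.729 CPM in cKO EAE and 24.1, 16.8 and 23.6 CPM in control EAE. Without EAE Plaur was at 0.465, 0 and 0.775 CPM in cKO and 0.763, 0.276 and 0.553 CPM in control mice. Control EAE was highest for both, and cKO EAE 1 and 2 were between it and the basal libraries. Both were called higher at EAE in control mice (3.30 ± 0.62, adjusted p = 0.00538 for Plau and 5.33 ± 0.94, adjusted p = 0.00434 for Plaur, edgeR's quasi-likelihood test). In cKO against control at EAE they were -1.50 ± 0.54, adjusted p = 0.104 and -2.04 ± 0.68, adjusted p = 0.0907, and without cKO EAE 3 -1.08 ± 0.29, adjusted p = 0.04 and -1.53 ± 0.19, adjusted p = 0.015. Plat, the tissue plasminogen activator, was at 49.8, 60.4 and 31.7 CPM in cKO EAE and 94.5, 69.7 and 73.9 CPM in control EAE. Without EAE Plat was at 36.5, 23.3 and 32.7 CPM in cKO and 35.8, 40.3 and 39.8 CPM in control mice. Its control EAE libraries were the highest, and it was called at EAE in control mice (1.04 ± 0.26, adjusted p = 0.0188, edgeR's quasi-likelihood test). Serpine2, protease nexin 1, an inhibitor of thrombin and of plasminogen activators made by astrocytes, was the most abundant coagulation member, at 296, 316 and 279 CPM in cKO EAE and 358, 373 and 382 CPM in control EAE. Without EAE Serpine2 was at 270.0, 437 and 245 CPM in cKO and 329, 258 and 249 CPM in control mice. All 3 cKO EAE libraries were below all 3 control EAE libraries, a small difference of -0.28 ± 0.09 (adjusted p = 0.0808, edgeR's quasi-likelihood test). The cKO basal library 2 was the highest of all 12 in CPM and, at 86.1, the lowest in TPM. Serpinb2, the plasminogen activator inhibitor 2, had 0 to 6 counts per library.

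**Figure D3:**
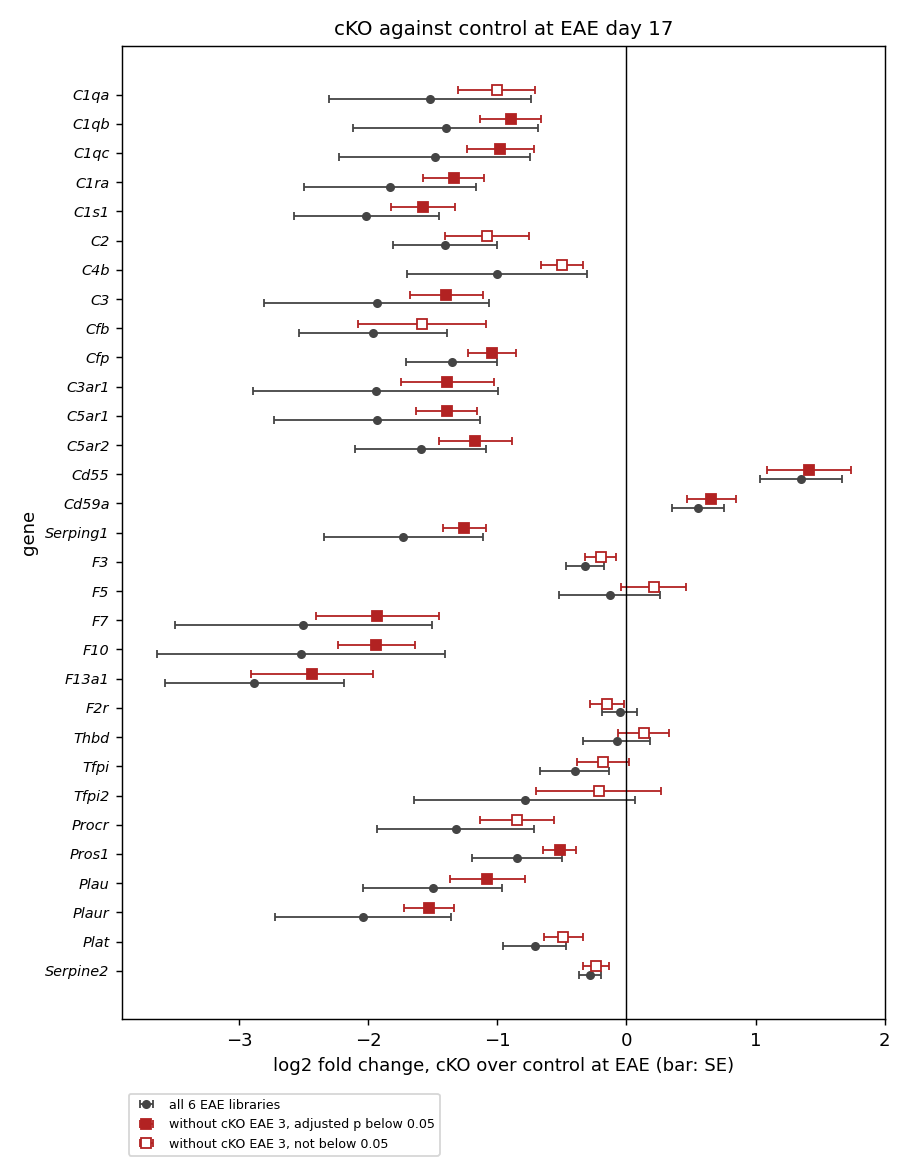
Log2 fold change of cKO over control at EAE (horizontal axis, bars are SE) for each of the 31 members tested, with the 6 EAE libraries (circles) and without cKO EAE 3 (squares, filled where the adjusted p was below 0.05). With all 6 EAE libraries Cd55 at 1.35 and Cd59a at 0.55 are to the right of 0, and the other members are to its left, with F13a1 at -2.88 the farthest.

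Levels of different genes were compared per length (CPM per kilobase). In control EAE, C1qb averaged 485 ± 69.5, C1qa 439 ± 107, C3 257 ± 65.2, C1qc 223 ± 29.1 and C4b 199 ± 20.1 CPM per kilobase (SD, n = 3), and Serping1 85.2 ± 16.6. The means of C1qb and C1qa differed by less than the larger SD, as did those of C3 and C1qc and of C1qc and C4b. Within each control EAE library C1qb was above C1qa and C1qc above C4b. C3 was above C1qc except in control EAE 3. Factor X (F10) averaged 29.1 ± 11.3 and tissue factor (F3) 25.9 ± 3.19 CPM per kilobase, a difference within their spread. Ratios within a library remove the total amount of these transcripts. C3 per C4b was 0.599, 0.763 and 0.414 in cKO EAE and 1.45, 1.45 and 0.965 in control EAE, and 0.622 to 0.740 in the 6 basal libraries. The cKO EAE and control EAE values did not overlap, and 3 libraries against 3 cannot give a two-sided exact permutation p below 0.1. C1qb per P2ry12, a microglial marker, was 15.8, 15.01 and 3.799 in cKO EAE and 27.4, 23.1 and 18.1 in control EAE, and was 2.98 to 3.11 in cKO basal and 3.76 to 4.39 in control basal. F10 per Lyz2, a macrophage marker, overlapped between genotypes, at 0.0229, 0.0170 and 0.00173 in cKO EAE and 0.0164, 0.0173 and 0.0277 in control EAE. C3 per Lyz2 was higher in every cKO EAE library, at 0.253, 0.241 and 0.518 in cKO EAE and 0.124, 0.208 and 0.224 in control EAE, without overlap. C1qc per C1qb was lower in every cKO EAE library, at 0.406, 0.453 and 0.412 in cKO EAE and 0.455, 0.4702 and 0.4603 in control EAE. The EAE values of the other 3 ratios (C1qa per C1qb, F7 per F10 and C1ra per C1s1) overlapped between genotypes. C1qa per C1qb was 9.40 in cKO basal 2 and 0.710 to 0.984 in the other 11 libraries. 8 such ratios were computed, chosen after values were seen.

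**Figure D4:**
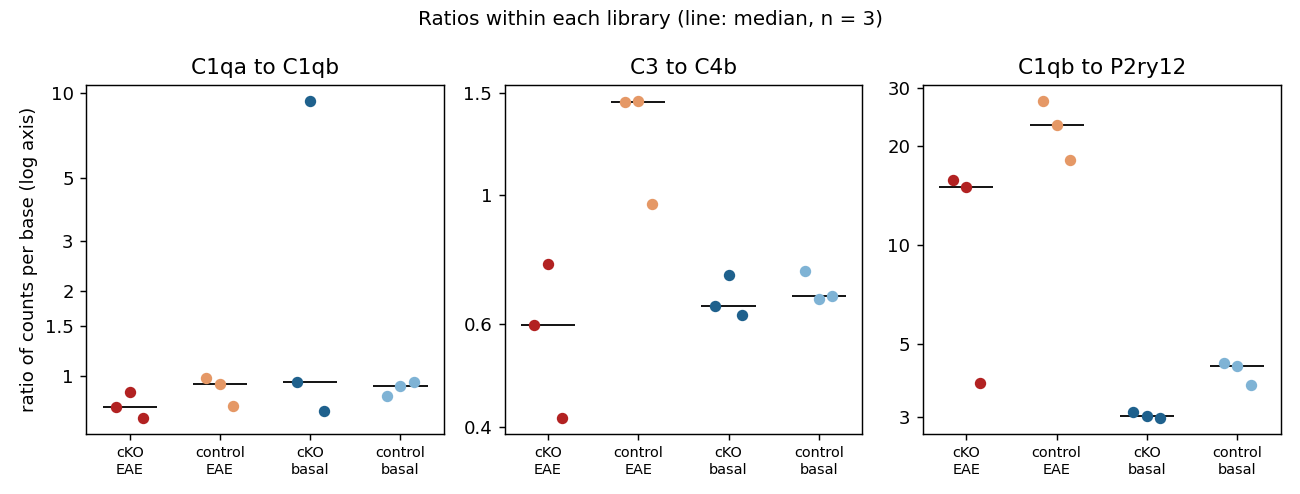
Ratios of counts per base (log axis) within each library for C1qa to C1qb, C3 to C4b and C1qb to P2ry12, with 1 point per library, the 4 groups from left to right as cKO EAE, control EAE, cKO basal and control basal, and a line at the group median. C1qa to C1qb stands at 9.40 in cKO basal 2, and C3 to C4b is 0.965 or more in the control EAE libraries and 0.763 or less in the others.

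Without EAE no gene of the 17133 tested, and so no member, was called between genotypes by edgeR's quasi-likelihood test (31 genes had an unadjusted p below 0.05, DESeq2 called 1 and limma voom 0). All 3 cKO basal libraries were below all 3 control basal libraries for C1qb and F13a1 and above for none, against 3.64% and 2.14% of all genes. The difference of the EAE response between genotypes was also called for no gene (1697 of 18601 had an unadjusted p below 0.05, DESeq2 called 33 and limma voom 2999). Its median was -1.65 over the complement members and -0.72 over the coagulation members, against -0.05 over all genes, and these values share their libraries with the comparisons above. The members with a difference at an unadjusted p below 0.05 were Cfp, F13a1, Cfb, Serping1 and C1qa, chosen here by that p. That of C1qa was -2.97 ± 1.34 (unadjusted p = 0.0484, edgeR's quasi-likelihood test) with all libraries and -0.53 ± 0.41 (unadjusted p = 0.217) without cKO basal 2 and cKO EAE 3.

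Other genes of the same pathways, listed with knowledge of these data, were counted in the same way. In control mice at EAE, 8 of 21 other complement genes tested (of 38 listed) were higher and 1 was lower, and 5 of 23 other coagulation and fibrinolysis genes tested (of 40 listed) were higher, against 12.1% of all genes called higher and 5.05% called lower. Among those with the smallest p were the subunits of the complement receptors 3 and 4, Itgb2 (log2 6.13), Itgax (8.96) and Itgam (4.41), with von Willebrand factor (Vwf, 3.58) and the plasma protease inhibitor A2m (3.54); Susd4, a sushi domain protein, was lower (-0.84). In cKO against control at EAE, Susd4 was higher (log2 0.66, adjusted p = 0.044) and Lman1, a cargo receptor for factors V and VIII, was lower (-0.42, adjusted p = 0.0493, edgeR's quasi-likelihood test), against 6.13% of all genes called higher and 1.54% called lower. They were the only calls among 19 and 23 genes tested. Both calls were lost without cKO EAE 1, without any 1 of the control EAE libraries and with all 12 libraries in the fit, where no gene was called.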

How the data were processed

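Raw read counts per gene, as deposited, were made by the authors from reads aligned with HISAT2 2.0.5 to build mm10; the submitters' processing notes name featureCounts 1.5.0-p3. How strand and multi-mapping reads were treated, and which annotation release and kit were used, is not given in the sources used here. In all, the 12 libraries held 15128913 to 17592105 counts over 54532 genes. All 34 members were matched by symbol. Libraries are labelled as biological replicates, and p-values measure the spread between them.

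Members, role lists, pathway lists and markers were chosen with earlier results of these data known. Genes were filtered (filterByExpr, edgeR 4.0.16, R 4.3.3), scaled by TMM and tested by edgeR's quasi-likelihood test, with p-values adjusted (Benjamini-Hochberg) over all genes tested: 18601 in 1 fit of all 12 libraries for EAE against basal and its difference between genotypes, 17914 over the 6 EAE libraries and 17133 over the 6 basal libraries. Alternatives were DESeq2 1.42.0, limma voom (limma 3.58.1) with sample weights, DESeq2 size factors, no filter, a replicate block and libraries left out. The script was tested on simulated data. A group at 0 counts was set to a floor of 3 counts. Poisson intervals and floors cover counting error only. Genes are named by rule: every member, and of other pathway genes the smallest p in each direction, of which some are not reported here; ratios were chosen after values were seen. Numbers of replicates did not pair libraries: the correlation of same-numbered libraries ran from -0.458 to 0.371. Promoter letters are from RefSeq, GRCm38.p6.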

Additional observations from a re-analysis of the deposited data

Results flagged for a closer look

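Serpine2, protease nexin 1, was singled out because in CPM its EAE libraries lay on opposite sides of their basal means in the 2 genotypes. In that unit each of the 3 cKO EAE libraries was below the mean of the cKO basal libraries, and each of the 3 control EAE libraries was above the mean of the control basal libraries. Its log2 difference between the EAE responses (cKO minus control) was -0.51 (SE 0.32), and edgeR's quasi-likelihood test gave an adjusted p of 0.627. Neither change was called with all libraries: the log2 fold change was -0.09 in cKO mice (adjusted p = 0.841) and 0.41 in control mice (adjusted p = 0.272), and without cKO basal 2 and cKO EAE 3 the directions were no longer opposite, at 0.23 in cKO mice and 0.42 in control mice. The cKO basal mean rests on cKO basal 2, at 437 CPM the highest of the 12 libraries, with the other cKO basal libraries at 270.0 and 245 CPM. In TPM cKO basal 2 was the lowest of the 12 libraries. In that unit the EAE libraries were above the basal libraries in both genotypes, without overlap, so the opposite sides were seen in CPM only.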

How the results depend on the processing

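In control mice at EAE, complement calls (13) numbered 13 to 15 and coagulation calls (9) 9 to 14 over DESeq2 (18.5% of all genes called), its size factors (16.9%), limma voom (14 coagulation calls, 59.8% of all genes), no filter (6.95%), the control libraries alone (45.6%) and the fit without cKO basal 2 and cKO EAE 3 (45.8%). Tests against at least a 2-fold change gave 10 and 7 (6.2% of all genes), and leaving out 1 library gave 11 to 15 and 6 to 13 (9.04% to 42.9%). In cKO mice at EAE (0 and 0) there were 8 complement and 5 coagulation calls with no filter (1.42% of all genes), 10 and 8 with DESeq2 (5.95%), 11 and 11 with limma voom (19.6%), 11 and 12 without cKO basal 2 and cKO EAE 3 (14.3%), and 0 to 10 and 0 to 8 with 1 library left out (0.0261% to 5.63%). In cKO against control at EAE (0 and 0) there were 3 and 1 with no filter (4.99% of all genes), 7 and 4 with DESeq2 (30.1%), 14 and 7 with limma voom (32.3%), 12 and 6 without cKO EAE 3 (18.2%), and 0 to 12 and 0 to 6 with 1 library left out (0% to 18.6%). The difference between responses had 4 complement calls with limma voom (16.1% of all genes). The cause of these changes was not tested. With a replicate block the calls were 13 and 9 in control mice and 0 in the other comparisons, and all-gene calls in cKO against control at EAE were 0, against 1374; the replicate numbers are shared names only.

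Directions turned for members that were not called. Cfp in cKO mice at EAE (-0.04) was 0.40 with limma voom, 0.62 without cKO basal 2 and cKO EAE 3, and -0.40 to 0.31 with 1 library left out. F5 in cKO against control at EAE was 0.19, 0.21 and -0.36 to 0.21 under the same settings, Thbd 0.23, 0.13 and -0.33 to 0.13, Serpine2 in cKO mice at EAE (-0.09) 0.21, 0.23 and -0.28 to 0.20, and C1qa at basal -0.46, -0.52 and -0.52 to 1.92. With 1 library left out, F2r ranged from -0.10 to 0.17 in control mice at EAE and from -0.15 to 0.019 in cKO against control at EAE, and Cd55 from -0.20 to 0.51 in cKO mice at EAE. Groups of 3 libraries and the spread of the cKO EAE libraries limit these tests, as do low counts: 16 of the 34 members had under 30 counts in every basal library, and Cfi, Tfpi2, Proc and Serpinb2 in every library.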

Other observations

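Thrombospondin 1 (Thbs1), a matrix glycoprotein released by platelets and outside the 34 members, was called higher at EAE in control mice (log2 fold change 3.58, adjusted p = 0.0107, edgeR's quasi-likelihood test). Its log2 fold change of cKO over control at EAE was -1.83, which did not pass that test (adjusted p = 0.0549).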
